A study of Mus musculus with 4 samples.

Results

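Cycling thymic epithelial cells (TECs) of the fetal thymus were described across 4 single-cell RNA libraries. A cell was taken as a cycling TEC when it held at least 2 UMIs of Epcam and of Krt18, at most 1 UMI of Ptprc, none of Pdgfra, at least 2 UMIs of Top2a and of Mki67, fewer than 5 UMIs of Krt5 and none of Gcm2. UMIs are molecular tags that count captured transcripts. After cells under 200 genes or over 10% mitochondrial UMIs had been set aside, 3008 of the 29510 that were left met these limits. The Tbx1+/+ carrier library gave 1454 of them, the Tbx1neo2/neo2 carrier library 499, the Tbx1neo2/neo2 minoxidil library 449 and the Tbx1neo2/neo2 PGE2 library 606. Values below are in that order wherever 4 are given. Because the cells were chosen on Top2a and Mki67, the levels of these 2 genes are not a finding, and no comparison of these cells with other cells is a test.

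The cells came from thymic lobes of mouse embryos at E13 to 13.5, obtained by crossing Tbx1+/neo2 parents. The neo2 allele holds a neomycin cassette in the fifth intron of Tbx1 and lowers its expression constitutively, so the 3 Tbx1neo2/neo2 groups share a hypomorph that models the thymic hypoplasia of 22q11.2 deletion syndrome. Injections into the pregnant mice were given on 3 days (E8, E9, E10), with carrier of 5% ethanol in PBS for the first 2 groups, with 200 µl of minoxidil at 0.55 mg/ml for the third, or with 90 µl of PGE2 at 3.6 ng/µl for the fourth. Each group was a single library. The study states that lobes of hypoplastic thymuses were pooled, while the series text speaks of 1 embryo for each group. Both carrier libraries held female and male cells, so the number of embryos behind a library is not known. The libraries therefore have no replicates, a difference between them has no replicate check, and a treatment cannot be told apart from the embryos, the dissection and the library that carried it.

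TECs arise from the endoderm of the third pharyngeal pouch. The transcription factor Foxn1 drives their differentiation, and cells of the early organ divide while they begin to make the products by which the cortex attracts and selects thymocytes. Homeobox factors such as Hoxa3, with Eya1 and Pax factors, pattern the pouch before and during that step. In dividing cells, E2F factors drive genes of DNA replication in S phase, and genes of G2 and mitosis are controlled by the DREAM and MuvB complexes, which bind CHR elements, and by NF-Y, which binds CCAAT boxes.

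The promoters of 4 cell-cycle genes that separate these cells from their non-cycling neighbours show those elements. They are printed 5′ to 3′ on the strand of the gene from RefSeq sequence (GRCm38.p6, the assembly also called mm10), and end before the first annotated exon. Cdk1 encodes the mitotic kinase, Ccnb2 its cyclin partner, Cdc20 an activator of the anaphase-promoting complex and Mcm5 a subunit of the replicative helicase. Capitals mark the CHR letters TTTGAA, the CCAAT box letters CCAAT, or the E2F letters TTTGGCGC or TTTCCCGC, on either strand, so that ATTGG is CCAAT and GCGCCAAA is TTTGGCGC on the other strand. The regions are chr10:69352939-69353082 for Cdk1, chr4:118437353-118437513 for Cdc20, chr9:70421555-70421724 for Ccnb2, all on the minus strand, and chr8:75109339-75109508 for Mcm5 on the plus strand.
Cdk1: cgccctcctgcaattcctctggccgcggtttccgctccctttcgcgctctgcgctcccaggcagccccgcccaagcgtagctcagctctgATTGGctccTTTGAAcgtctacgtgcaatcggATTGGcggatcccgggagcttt
Cdc20: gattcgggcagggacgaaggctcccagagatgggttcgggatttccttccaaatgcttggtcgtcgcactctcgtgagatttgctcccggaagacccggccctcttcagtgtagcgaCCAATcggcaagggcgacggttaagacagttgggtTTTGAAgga
Ccnb2: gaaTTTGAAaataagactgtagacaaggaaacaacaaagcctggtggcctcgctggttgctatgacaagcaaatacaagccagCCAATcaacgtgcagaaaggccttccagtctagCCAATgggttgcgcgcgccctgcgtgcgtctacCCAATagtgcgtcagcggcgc
Mcm5: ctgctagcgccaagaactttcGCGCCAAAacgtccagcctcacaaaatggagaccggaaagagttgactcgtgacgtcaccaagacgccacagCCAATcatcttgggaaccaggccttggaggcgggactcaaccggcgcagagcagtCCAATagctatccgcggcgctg

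The Cdk1, Cdc20 and Ccnb2 stretches each held 1 CHR match and 1 to 3 CCAAT matches, and the Mcm5 stretch held 1 E2F match and 2 CCAAT matches. Over the 250 bases before the start of each gene, CHR letters stood in 10 of the 27 promoters found for 30 listed G2/M genes (37.0%), in 3 of 25 for 30 listed S phase genes (12%) and in 18.3% of all 27025 promoters. CCAAT stood in 20 of 27 G2/M promoters (74.1%), in 14 of 25 S phase promoters (56.0%) and in 37.5% of all. E2F letters stood in 1 of 27 G2/M promoters (3.70%), in 8 of 25 S phase promoters (32.0%) and in 1.51% of all. None of the 3 motifs contains another. A match is a description of letters and was not tied to binding in these cells.

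The cycling TECs held 47583258, 17499301, 29320905 and 32441320 UMIs in all, with a median of 32184, 32062, 61590 and 52084 UMIs and 5675, 5560, 7181 and 6669.5 genes per cell. The minoxidil and PGE2 cells were thus read more deeply than those of either carrier library. Levels are given as CPM, the UMIs of a gene scaled to the total UMIs of the summed cells, with exact Poisson 95% intervals. These cover counting error only and say nothing of the spread over cells, embryos or libraries. The 4 libraries did not have the same sex makeup. Of the cycling TECs, 331 were female and 697 male in the Tbx1+/+ carrier library by Xist and Y-linked UMIs, and 168 were female and 254 male in the Tbx1neo2/neo2 carrier library. The minoxidil library held 441 female and no male cells, and the PGE2 library 543 male and no female cells. Both kinds of UMIs stood in 25 and 8 cells of the carrier libraries, and 401, 69, 8 and 63 cells had too few to tell. Counts between libraries are therefore also given within 1 sex.

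Overlap of the libraries and transcripts of other tissues were measured before the levels. Pairs of libraries shared 4 to 35 cell barcodes, and at most 1 barcode of a pair was a cycling TEC in both. Among the top 5% of each library's Scrublet doublet scores were 34, 30, 6 and 4 of the cycling TECs. Markers of other tissues were summed as lists. Thyroid markers summed to at most 2.16 CPM, with Nkx2-1 at 0. Mesenchymal markers other than Pdgfra summed to 135.8, 160.6, 50.3 and 33.9 CPM (9 of 10 detected, led by Col3a1 in the carrier libraries and Twist1 in the treated ones), chondrogenic markers to 46.4, 64.2, 36.0 and 28.3 CPM, led by Col2a1, and hematopoietic markers to 70.4, 41.3, 17.0 and 19.6 CPM. Both carrier libraries were thus above the treated ones for these 3 lists. Endothelial markers summed to 46.2, 69.9, 27.6 and 56.3 CPM, macrophage markers to 7.38, 27.5, 2.83 and 4.19 CPM, neural crest or glial markers to at most 15.8 CPM, myogenic markers to 1.91 to 3.94 CPM and mesothelial markers to 0.308 to 3.91 CPM. The airway or esophageal list summed to 78.1 to 92.6 CPM, almost all of it Trp63, which TECs also express. The parathyroid list summed to 81.0, 6.74, 6.04 and 5.24 CPM, led by Pth in the Tbx1+/+ carrier library.

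Hemoglobin transcripts were the most abundant foreign group. Erythroid markers summed to 1217.4, 3981.9, 1530.0 and 2022.4 CPM. In the Tbx1neo2/neo2 carrier, minoxidil and PGE2 libraries, 9, 3 and 5 cells held 90% of the hemoglobin UMIs, against 119 cells in the Tbx1+/+ carrier library.

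Cycling TECs made up 35.8% (exact Clopper-Pearson 95% interval 34.3 to 37.3) of the 4062 epithelial cells of the Tbx1+/+ carrier library, where epithelial means the Epcam, Krt18, Ptprc and Pdgfra limits alone. The share was 46.8% (43.7 to 49.8) of 1067 in the Tbx1neo2/neo2 carrier library, 47.1% (43.9 to 50.3) of 954 in the minoxidil library and 49.4% (46.6 to 52.2) of 1227 in the PGE2 library. A UMI limit is met more often in a deeper cell, so cells were also thinned to 10000 UMIs and those with fewer were left out, which kept 3280, 970, 867 and 1129 epithelial cells. The shares of these then were 29.4% (27.8 to 31.0), 33.6% (30.6 to 36.7), 29.1% (26.1 to 32.2) and 37.3% (34.5 to 40.2). After thinning the PGE2 interval stayed above that of the Tbx1+/+ carrier library, and the minoxidil share lay within the interval of the Tbx1+/+ carrier share. Of all kept cells, cycling TECs were 12.7%, 4.67%, 14% and 14.6%, and 10.4%, 4.21%, 8.78% and 11.6% after thinning, for which 9226 of 11474, 7742 of 10683, 2871 of 3201 and 3636 of 4152 kept cells were deep enough. The share in the Tbx1neo2/neo2 carrier library was the lowest either way, in a library where 3163 of 10683 kept cells met a mesenchymal gate, against 1836 of 11474 in the Tbx1+/+ carrier, 761 of 3201 in the minoxidil and 557 of 4152 in the PGE2 library. That gate, at least 2 UMIs of Pdgfra and none of Epcam or Ptprc, does not take in all mesenchyme, and the hematopoietic cells below likewise held at least 2 UMIs of Ptprc and none of Epcam or Pdgfra. Members holding exactly 2 UMIs of Top2a or Mki67 numbered 221, 67, 51 and 67, and 412, 86, 68 and 87 cells just missed the rule with 1 UMI of the lower gene.

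**Figure D1:**
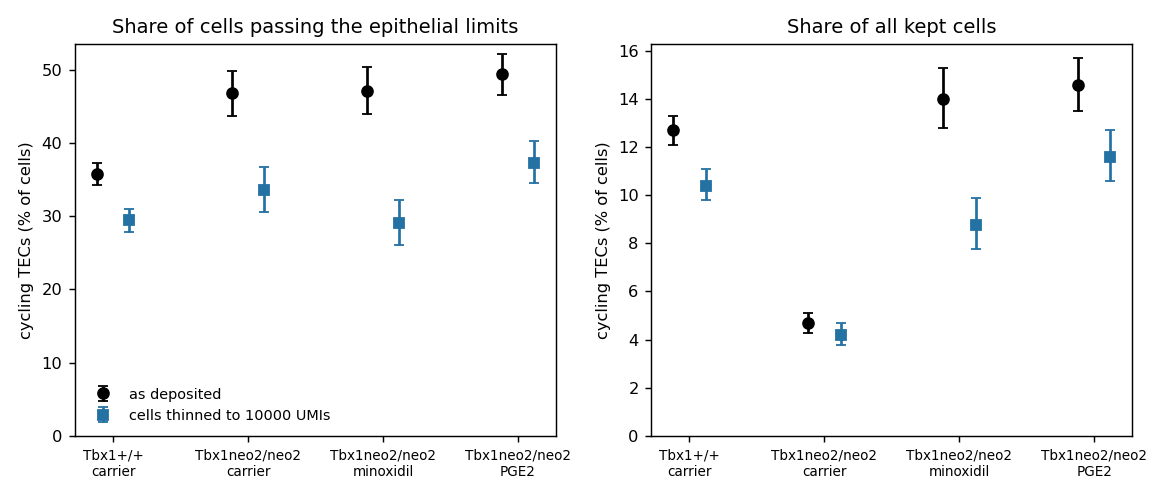
Share of cells that were cycling TECs, in percent, among epithelial cells (left) and among all kept cells (right) of the 4 libraries, as deposited and after thinning to 10000 UMIs with shallower cells left out. Points are shares and bars are exact Clopper-Pearson 95% intervals, and the 3 Tbx1neo2/neo2 libraries lie at 46.8% to 49.4% of epithelial cells as deposited but at 29.1% to 37.3% after thinning.

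Of 24 listed transcription factors of the thymic pouch, 15 reached 20 CPM in each comparison of libraries. Six2, a homeobox factor best known for keeping nephron progenitors undifferentiated in the kidney (chr17:85684277-85688274), was at 139.3 CPM (136.0 to 142.7), 128.7 (123.5 to 134.2), 187.8 (182.8 to 192.8) and 128.2 (124.3 to 132.1). It was highest in the minoxidil library, then in the Tbx1+/+ carrier library, and the Tbx1neo2/neo2 carrier and PGE2 libraries did not differ beyond counting error. The minoxidil level was 0.54 (0.47 to 0.62) above that of the Tbx1neo2/neo2 carrier on the log2 scale, short of the 1.5-fold used below to call a gene. In non-cycling TECs the minoxidil level was 107.4 CPM and the Tbx1neo2/neo2 carrier level 78.4 CPM. The log2 ratio of the same 2 libraries was 0.29 in Krt5 TECs, the epithelial cells with at least 5 Krt5 UMIs.

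Pax1, a paired box factor required for TEC and parathyroid development (chr2:147361925-147393295), was at 614.3, 566.5, 582.6 and 584.3 CPM. Only the Tbx1+/+ carrier level stood apart, and the other three overlapped with their neighbours in rank. Pax9, its paralog (chr12:56691767-56712822), was at 172.6, 167.4, 169.1 and 168.3 CPM with overlapping intervals throughout. Shisa2, an endoplasmic reticulum protein that restrains FGF and Wnt receptors (chr14:59625308-59631660), was at 323.3, 289.7, 281.5 and 231.4 CPM. Its PGE2 level was the lowest and apart from the others, and its Tbx1+/+ carrier level was the highest and apart. Il7, the cytokine on which thymocyte progenitors depend (chr3:7569994-7613760), was at 331.8, 337.5, 336.3 and 381.6 CPM, with the PGE2 level alone standing apart.

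Foxn1 was at 99.6, 104.7, 87.9 and 103.6 CPM, lowest in the minoxidil library and otherwise within overlapping intervals. Of the other pouch factors, Eya1, a phosphatase and coactivator, was at 50.6 to 58.5 CPM, Hoxa3 at 16.9 to 22.0 CPM and Trp63 at 76.1 to 90.5 CPM. The label of the cells as dividing thymic epithelium held for its markers Six2, Pax1 and Shisa2, while their capacity as progenitors was not measured. These markers were also present in the non-cycling TECs, where Pax1 was higher in each library, so they are not particular to the cycling cells. Tbx1, the targeted gene, was at 1.05 (0.78 to 1.39), 1.37 (0.879 to 2.04), 1.06 (0.718 to 1.5) and 0.709 (0.449 to 1.06) CPM, from 23 to 50 UMIs. These cells hold too little Tbx1 to check the genotype labels.

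**Figure D2:**
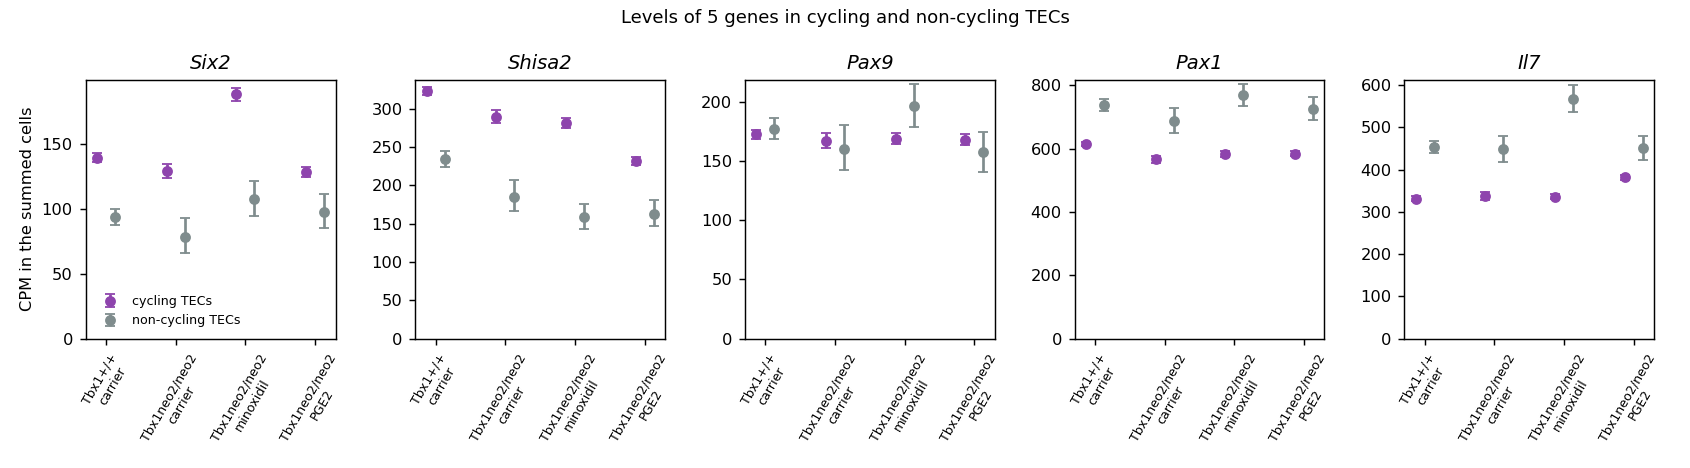
Level of Six2, Pax1, Pax9, Shisa2 and Il7 in CPM of the summed cells (vertical axes) for cycling and non-cycling TECs of the 4 libraries, with exact Poisson 95% intervals as bars. Six2 and Shisa2 lie higher in cycling than in non-cycling TECs of every library (Six2 128.2 to 187.8 against 78.4 to 107.4 CPM), Pax1 and Il7 lower.

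These transcripts often met in the same cells. With cells thinned to 10000 UMIs, which left out 110, 3, 0 and 2 shallower cycling TECs, Six2 was found in 66.1%, 66.3%, 75.9% and 67.4% of cycling TECs (87.5%, 91.2%, 98.9% and 93.9% without thinning). It was found in 52.8%, 51.1%, 56.1% and 57.1% of non-cycling TECs, and in 1.11%, 0.421%, 1.19% and 0% of hematopoietic cells thinned to the same number. The last is from 364 cells, which at a floor of 3 cells allows a share with detected Six2 of up to 0.824%. All of Six2, Pax1, Pax9, Shisa2 and Il7 were found together in 42.3%, 42.3%, 48.8% and 37.4% of cycling TECs and in 31.7%, 29.3%, 34.8% and 27.1% of non-cycling TECs. None of 1081, 475, 252 and 364 hematopoietic cells held all 5, which at a floor of 3 cells allows shares of up to 0.278%, 0.632%, 1.19% and 0.824%. Six2 and Psmb11, the thymoproteasome subunit of the cortex, were found together in 38.8%, 35.9%, 44.3% and 46.9% of cycling TECs and in 46.6%, 46.7%, 48.5% and 50% of non-cycling TECs.

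Each of the identity genes varied from cell to cell beyond counting. The variance over the mean of thinned UMIs was 1.30 to 1.36 for Six2, 1.24 to 1.60 for Pax9, 1.49 to 1.91 for Pax1, 1.68 to 1.91 for Shisa2 and 1.82 to 2.32 for Il7, where counting alone gives 1. For the cortical gene Psmb11 it was 3.14, 3.77, 3.04 and 2.98, above each of these ranges. This measure also depends on the mean, so it does not rank the genes by their relative variation. Mean thinned UMIs in the Tbx1+/+ carrier library were 1.31 for Six2, 1.72 for Pax9, 6.11 for Pax1, 3.12 for Shisa2, 3.51 for Il7 and 1.69 for Psmb11.

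Non-cycling TECs, with the same epithelial, Krt5 and Gcm2 limits and no UMI of Top2a or Mki67, numbered 470, 104, 69 and 77. Their median of 18794, 17361, 36001 and 30039 UMIs was below that of the cycling cells. Genes with at least 20 CPM in a cell group were compared, and a gene was called where the ratio reached 1.5-fold with level intervals that did not overlap. Among 5589 genes, 417 (7.46%) were called higher and 199 (3.56%) lower in cycling TECs of all 4 libraries. On thinned counts 268 were higher and 51 lower. Described by the lists, genes of division were higher, and genes of the cortex and of antigen presentation lower.

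All 30 of the G2/M genes were called higher in every library, with a median log2 ratio of 4.62 over the list against 0.04 over all genes. Prc1, which bundles microtubules of the spindle midzone, was at 273.1, 257.2, 235.3 and 326.2 CPM in cycling and 5.51, 5.04, 1.29 and 5.88 CPM in non-cycling TECs. Nusap1, which stabilises spindle microtubules, was at 169.7, 149.6, 133.7 and 206.5 against 3.33, 3.92, 0.863 and 5.43 CPM. Cdk1 was at 402.7, 367.9, 365.5 and 379.5 against 23.5, 21.3, 9.06 and 21.3 CPM. All 4 libraries thus had the cycling levels far above the non-cycling ones. The gap was widest in the minoxidil library, where the non-cycling levels of Prc1 and Nusap1 rest on 3 and 2 UMIs. The largest ratios also belonged to Cenpf, Sgol2a and Casc5 of centromere and kinetochore, the kinesin Kif11, Esco2, which acetylates cohesin, the cytokinesis protein Anln, the inhibitor of the anaphase-promoting complex Fbxo5 and the kinase Aurkb.

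Of 27 S phase genes tested, 23 were called higher in all 4 libraries, with a median log2 ratio of 1.37. Mcm5 was at 81.4, 72.6, 93.7 and 85.0 CPM in cycling and 34.2, 29.7, 29.8 and 35.3 CPM in non-cycling TECs, and Pcna, the sliding clamp of DNA polymerases, at 86.0, 82.7, 134.4 and 96.1 against 33.1, 26.3, 35.8 and 36.2 CPM. Mcm5 and Pcna were separated by less than Prc1, Nusap1 and Cdk1 in each library. The rule set both groups of cells by Top2a and Mki67, and its part in this order was not tested. Of 10 cyclin D, CDK inhibitor and Myc genes, the inhibitors Cdkn1b and Cdkn2d were called higher. Cdkn1b was at 29.9, 22.2, 26.3 and 34.4 against 16.9, 10.1, 17.3 and 17.2 CPM, and Cdkn2d at 47.9, 44.3, 40.6 and 45.2 against 15.5, 16.8, 15.5 and 14 CPM.

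Cortical TEC genes were lower in the cycling cells. Of 13 tested, Psmb11, Prss16, Ccl25, Ctsl, Tbata, Cd83, Ly75, Krt8 and Snap91 were called lower in all 4 libraries, none was higher, and the median log2 ratio was -1.21. Psmb11 (chr14:54621433-54629556) was at 149.9, 145.1, 145.7 and 217.2 CPM in cycling and 506.9, 509.0, 597.2 and 578.8 CPM in non-cycling TECs. Ccl25, the chemokine that draws progenitors to the thymus, was at 450.4, 326.1, 401.6 and 459.1 against 1570.0, 1581.8, 1632.3 and 1531.1 CPM. Tbata, a gene of thymus, brain and testis, was at 16.2, 11.9, 20.1 and 12.8 against 158.9, 136.6, 195.0 and 128.0 CPM, the lowest ratio of all named genes. Prss16, the thymus-specific serine protease, was lower by less, at 390.7, 312.1, 347.2 and 400.0 against 782.9, 858.4, 773.7 and 926.1 CPM. Cycling TECs thus held cortical transcripts in every library, though Tbata had log2 ratios of -3.52 to -3.28.

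Antigen-presentation genes followed the cortical ones. Of 11 tested, 9 were called lower in all 4 libraries (H2-K1, Tapbp, Psmb9, Psmb10, H2-Aa, H2-Ab1, H2-Eb1, Cd74 and H2-DMa), with a median log2 ratio of -1.48. Cd74, the invariant chain of MHC class II, was at 127.2, 139.0, 173.9 and 298.5 CPM in cycling and 550.8, 561.1, 618.3 and 781.4 CPM in non-cycling TECs. The log2 ratio was closest to 0 in the PGE2 library, at -1.39, against -2.11, -2.01 and -1.83.

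The transcription factors of the pouch were compared in the same way. None of 14 tested was called in all 4 libraries in either direction, where 7.46% of all genes were higher and 3.56% lower. With so few genes, no call lies near these shares. The median log2 ratio was 0.01 against 0.04 over all genes. Six2 was at 93.4, 78.4, 107.4 and 97.7 CPM in non-cycling TECs and Shisa2 at 234.6, 185.3, 158.8 and 163.2 CPM, below the cycling level in each library. Foxn1 was at 157.0, 189.8, 173.5 and 130.7 CPM, Pax1 at 737.5, 688.2, 768.9 and 726.2 CPM and Il7 at 454.1, 448.5, 567.8 and 451.7 CPM, above the cycling level in each. Hmga2, a chromatin protein of fetal and growing tissues, had log2 ratios of 0.58, 0.73, 0.86 and 0.76 in favour of cycling TECs and missed the 1.5-fold in the Tbx1+/+ carrier library.

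Signalling genes were called one by one. Of 13 FGF, EGF and IGF pathway genes, Etv4, Etv5 and Spry1 were called higher in cycling TECs of all 4 libraries. Etv4, a transcription factor induced by FGF, was at 28.2, 26.2, 28.3 and 22.9 against 9.42, 8.96, 3.02 and 7.69 CPM. Spry1, an FGF feedback inhibitor, was at 40.6, 25.2, 34.1 and 36.6 against 21.0, 6.72, 8.20 and 21.3 CPM. Of 15 BMP, Wnt, Notch, Shh and retinoic acid pathway genes, Id2 and Notch1 were called higher and Sfrp1, a secreted Wnt antagonist, lower. Id2, a BMP target and inhibitor of bHLH factors, was at 180.9, 152.2, 160.1 and 128.9 against 72.3, 54.3, 56.1 and 77.3 CPM.

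Of 8 cytokine, chemokine and Notch ligand genes, the Notch ligand Jag1 was called higher, at 27.0, 25.8, 31.1 and 25.6 against 14.1, 7.84, 13.4 and 14 CPM, and Ccl25 lower. Of 8 medullary and bipotent TEC genes, Krt17 and Relb were called lower. Krt17 was at 24.8, 21.8, 20.7 and 36.6 against 66.7, 96.9, 113.5 and 122.1 CPM, and the Krt5 limit of the rule bears on this list. Of 11 orthologs of the human 22q11.2 region, Ranbp1, a regulator of the Ran transport cycle, and Cdc45, a part of the replicative helicase, were called higher. Cdc45 was at 29.1, 27.4, 28.9 and 28.1 against 6.32, 3.92, 2.16 and 5.43 CPM. Among heat shock genes 1 of 10 was called higher (Hsph1), among immediate early genes 1 of 12 lower (Zfp36) and among hypoxia and glycolysis genes 1 of 15 lower (Bnip3l). No Sox gene of 4, no p53 target of 5 and no drug-related gene of 2 was called in all 4 libraries. Beyond the lists, the lowest ratios were those of Tbata, S100a14, Ppp1r27, the matrix protein Tnc, the adhesion molecule Opcml, Ccl25, Rgcc, Krt17, Psmb11 and Idnk. S100a14 was at 14.8, 14.3, 17.7 and 21.5 against 68.7, 72.8, 106.1 and 105.8 CPM.

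The change from non-cycling to cycling cells was followed through cells with intermediate counts. Epithelial cells with the same Krt5 and Gcm2 limits were ordered from neither gene detected, through 1 detected and the lower gene at 1, to the lower gene at 2 or 3 and at 4 or more UMIs. In the Tbx1+/+ carrier library Psmb11 was at 506.9, 259.9, 155.4, 151.7 and 149.5 CPM along these steps, and Ccl25 at 1570.0, 906.3, 555.2, 505.0 and 438.9 CPM. Cd74 was at 550.8, 235.6, 143.9, 133.0 and 126.0 CPM. The cells with 1 UMI of the lower gene, which missed the rule, held Psmb11 at 155.4, 198.9, 247.6 and 291.3 CPM in the 4 libraries, against 149.5, 145.4, 139.4 and 218.4 CPM in the last group. These intervals overlapped in the Tbx1+/+ carrier library and were apart in the other three. Cd74 was at 143.9, 133.5, 218.5 and 401.5 against 126.0, 141.2, 166.3 and 296.4 CPM, overlapping in the Tbx1neo2/neo2 carrier library alone.

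Six2 was higher at the last of the same steps than at the first in each library. It was at 93.4, 104.2, 97.4, 104.1 and 146.8 CPM in the Tbx1+/+ carrier library and at 78.4, 104.6, 105.5, 96.8 and 135.2 CPM in the Tbx1neo2/neo2 carrier library. In the minoxidil library it was at 107.4, 143.9, 155.7, 145.4 and 194.9 CPM, and in the PGE2 library at 97.7, 98.2, 91.2, 99.7 and 132.7 CPM. The last step had intervals apart in all 4 libraries, and the first step in the Tbx1neo2/neo2 carrier and minoxidil libraries. Median depth was 18794, 17686, 18307, 23691 and 34674 UMIs along the steps in the Tbx1+/+ carrier library, higher than at the start in the last 2 groups only. In the other libraries it rose at every step, from 17361 to 34350, from 36001 to 65982 and from 30039 to 54130 UMIs, and its part in these levels was not tested.

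**Figure D3:**
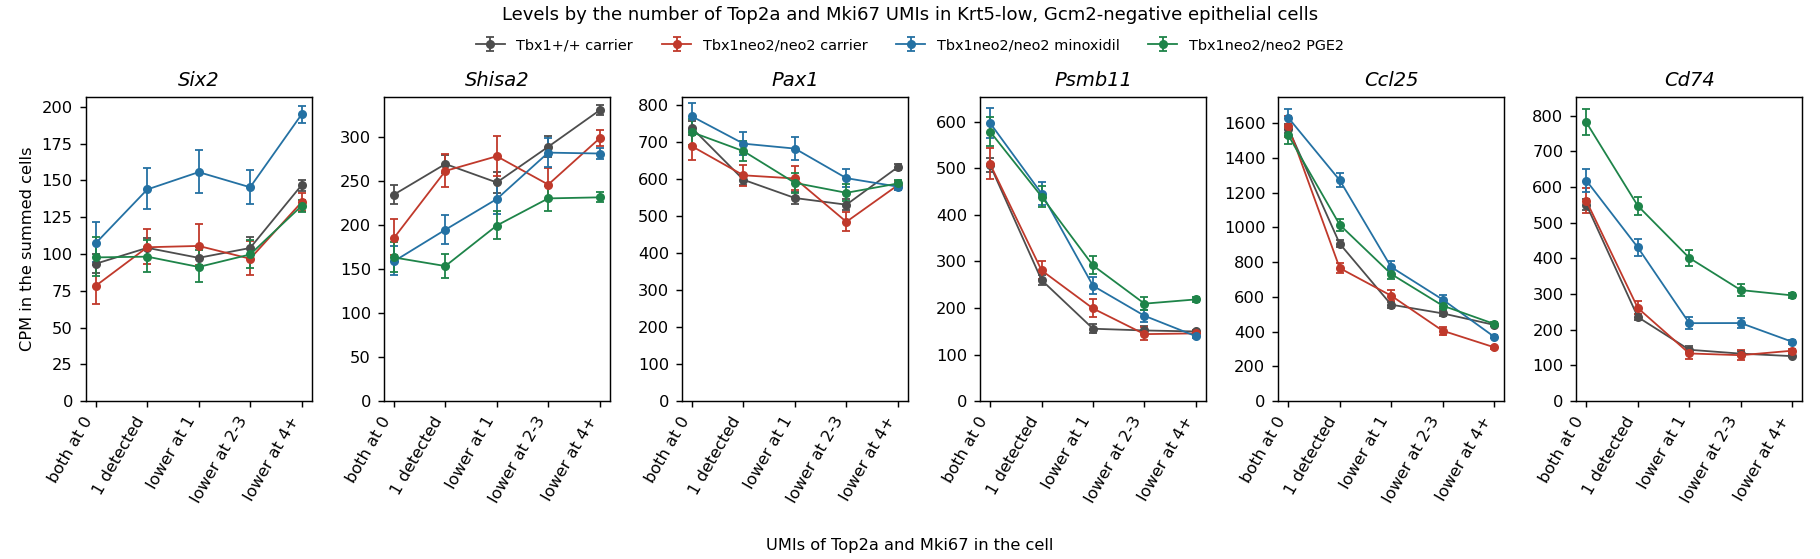
Level of Six2, Shisa2, Pax1, Psmb11, Ccl25 and Cd74 in CPM (vertical axes) over 5 groups of Krt5-low, Gcm2-negative epithelial cells ordered by their Top2a and Mki67 UMIs, 1 line for each library, with exact Poisson 95% intervals as bars. The last 2 groups are the cycling TECs, and Psmb11 in the Tbx1+/+ carrier library goes from 506.9 to 149.5 CPM while Six2 goes from 93.4 to 146.8 CPM.

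Cycling TECs were also described by their place in the cycle. Summed G2/M genes were at 8059.0, 7225.8, 7196.5 and 8289.7 CPM and summed S phase genes at 2955.1, 2843.3, 3176.0 and 2889.7 CPM. Their ratio was 2.73 (2.71 to 2.74), 2.54 (2.52 to 2.57), 2.27 (2.25 to 2.28) and 2.87 (2.85 to 2.89). These intervals cover counting error of the summed UMIs only, not the spread from cell to cell. The ratio was lowest in the minoxidil library. With the rule applied to thinned counts the ratios were 3.28, 3.01, 2.99 and 3.44, so that the minoxidil and Tbx1neo2/neo2 carrier values were close. Cells that met the rule at full depth were also thinned afterwards, so their membership was not matched for depth. Of these cells, 970 of 1344, 367 of 496, 284 of 449 and 435 of 604 had more G2/M than S phase UMIs, or 72.2%, 74.0%, 63.3% and 72.0%. This split is a range and not a pair of cell types, since 21.8%, 23.0%, 24.3% and 20.7% of cells had between 40 and 60% of these UMIs on G2/M genes.

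**Figure D4:**
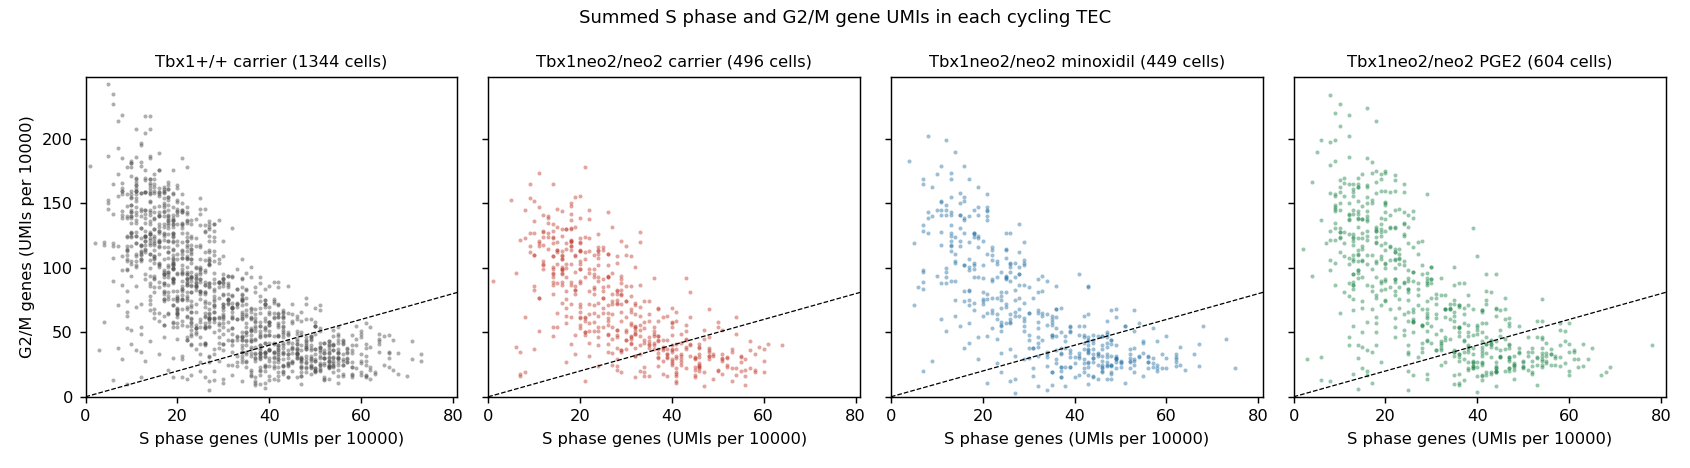
UMIs of the summed S phase genes (horizontal axis) and of the summed G2/M genes (vertical axis) in each cycling TEC of at least 10000 UMIs, thinned to that number, 1 panel for each library and 1 point for each cell. The cells met the rule at full depth, before thinning, so membership is not matched for depth. They spread along a continuous band, with 63.3% of cells above equality in the minoxidil library and 72.0% to 74.0% in the other 3.

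Between the G2/M-leaning and S-leaning cells, with the S phase and G2/M lists left out, 91 of 5384 genes (1.69%) were called higher and 57 (1.06%) lower in all 4 libraries. The split used the listed genes, so genes of the same program had to follow. The largest ratios included those of Kpna2, an importin, with log2 ratios of 2.62, 2.84, 2.76 and 2.90, then Fam64a, the kinesins Kif22 and Kif20a, Aspm of the spindle pole, Arl6ip1, Lockd, Ckap2l and Cdca3. The lowest were Slfn9, at -2.31, -1.97, -2.32 and -2.29, the mismatch repair gene Msh6, the checkpoint genes Clspn and Chek1, Dscc1, Brca1, Rnf168, Rpa2, Chaf1a and Arl6ip6.

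Six2 was higher in the G2/M-leaning cells of each library, at 153.0, 137.7, 209.9 and 141.6 CPM against 104.7, 97.6, 143.0 and 88.4 CPM, and was called in the PGE2 library. Its minoxidil level was the highest of the 4 in either group of cells. Foxn1 was at 109.9, 108.9, 100.2 and 114.2 against 72.8, 90.7, 63.1 and 71.8 CPM and was called in all but the Tbx1neo2/neo2 carrier library. Cdkn1b, at 34.6, 24.8, 31.8 and 40.1 against 15.2, 13.4, 15.0 and 17.1 CPM, and Cdkn2d were called higher in all 4 libraries. Of the 14 tested transcription factors of the pouch none was called in all 4 libraries, with a median log2 ratio of 0.21 against 0.02 over all genes.

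The carrier libraries, which differ in their Tbx1 alleles and in their sex makeup, were compared with each other. Of 5787 genes tested, 15 (0.259%) were higher and 50 (0.864%) lower in the Tbx1neo2/neo2 carrier than in the Tbx1+/+ carrier library. On thinned counts 24 were higher and 106 lower, and at 5% mitochondrial UMIs 26 were higher. Within female cells 22 were higher and 84 lower, within male cells 29 and 51, and 43 and 46 of these calls were also made over all cells. The immediate early genes, which cells switch on within minutes of a stimulus, made up the largest listed group. Of 16 tested, 13 were lower and none higher, with a median log2 ratio of -1.02 against -0.07 over all genes.

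Fos, a subunit of AP-1 (chr12:85473890-85477273), was at 639.0, 133.2, 422.8 and 863.7 CPM. The Tbx1neo2/neo2 carrier level was the lowest of the 4, and the log2 ratio to the Tbx1+/+ carrier was -2.26 (-2.32 to -2.20). Klf4, a zinc finger factor, was at 68.3, 16.7, 38.7 and 79.2 CPM, and the nuclear receptor Nr4a1 at 57.6, 14.9, 57.0 and 51.2 CPM. Atf3, a stress-induced partner of AP-1, was at 27.1, 1.20, 21.9 and 54.2 CPM. Each of these genes was lowest in the Tbx1neo2/neo2 carrier library. Socs3, a cytokine feedback inhibitor, at 35.9 CPM in that library and 122.2 CPM in the PGE2 library, and Klf6, at 61.4, 22.3, 37.1 and 81.6 CPM, followed the order of Fos, while Fosb was at 252.0, 127.0, 106.1 and 363.3 CPM, lowest in the minoxidil library. The median cell held 3350.0, 1775.8, 2372.8 and 4245.1 CPM of these genes in sum.

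The same list moved the same way in other cells of these libraries. Its median log2 ratio between the carrier libraries was -0.84 in non-cycling TECs, -1.11 in Krt5 TECs, -0.67 in hematopoietic cells and -1.91 in mesenchymal cells. The difference was thus not particular to cycling TECs.

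Genes outside that list were called one by one. Pth, parathyroid hormone, was at 50.8 CPM in the Tbx1+/+ carrier library from 2417 UMIs and at 0.0571, 0.102 and 0.0308 CPM in the others from 1, 3 and 1 UMIs. It was found in 37.4% of cycling TECs of that library, at 216.8 CPM in its non-cycling TECs and at 12.6 CPM in its hematopoietic cells. Gcm2 was at 0 by the rule, and the part of free RNA in the Pth level was not tested. Ifitm1 was at 108.5, 37.7, 22.7 and 23.7 CPM in cycling TECs and at 3811, 3442, 3687 and 2788 CPM in hematopoietic cells. Of 15 FGF, EGF and IGF pathway genes, the FGF feedback genes Spry1 and Dusp6 were lower. Spry1 was at 40.6, 25.2, 34.1 and 36.6 CPM and Dusp6 at 39.6, 22.2, 27.8 and 24.3 CPM, and neither was called between a treated library and the Tbx1neo2/neo2 carrier. Of 15 BMP, Wnt, Notch, Shh and retinoic acid pathway genes, Dhrs3, a retinaldehyde reductase, was lower, with a log2 ratio of -0.59. The stress gene Ddit4, 1 of 10 heat shock genes, was lower at 42.9, 26.3, 42.0 and 21.0 CPM, and the glycolytic Pgk1 was the only one of 16 hypoxia and glycolysis genes lower. Cyr61, a matrix-associated growth regulator, was at 84.5, 27.1, 90.9 and 86.0 CPM, and Nfkbia, the inhibitor of NF-κB, at 158.4, 82.8, 134.1 and 165.2 CPM.

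The higher genes were fewer. All 6 hemoglobin genes tested were called, from the few cells described above, and all 6 had the opposite direction within female cells. Hbb-bt had the largest log2 ratio of them, at 1.83. Hbb-y had the highest level in the Tbx1neo2/neo2 carrier library, and was at 451.1, 1413.5, 16.3 and 33.0 CPM. Asns, asparagine synthetase, was at 38.7, 62.1, 44.7 and 51.9 CPM and was called. The sex-linked Xist had the next ratio, at 168.2 CPM in the Tbx1+/+ carrier and 250.6 CPM in the Tbx1neo2/neo2 carrier library, and was not called. Chchd10, at 71.7, 102.2, 82.9 and 84.4 CPM, and Psph, of serine synthesis, at 54.0, 74.5, 55.7 and 63.4 CPM, followed Xist and were not called. Col1a1 and Col1a2 were called only with the highest cell of each gene included. Dcn, another of the 4 mesenchymal markers tested, was called lower, and lost the call without its highest cell. No gene was called among 15 transcription factors of the pouch, 12 cortical TEC genes, 8 cytokine and Notch ligand genes, 9 medullary and bipotent genes, 8 MHC genes, 27 S phase genes, 30 G2/M genes, 12 cyclin and CDK inhibitor genes, 4 Sox genes, 13 orthologs of the 22q11.2 region, 7 p53 targets, 2 drug-related and 3 sex-linked genes. With lists this short, no call lies near the shares of 0.259% higher and 0.864% lower over all genes. Median log2 ratios among these lists were lowest for cytokine (-0.34), cortical (-0.30), medullary (-0.19) and G2/M genes (-0.19), against -0.07 over all genes. Those of MHC (-0.02), 22q11.2 (0.02), Sox (0.10) and sex-linked genes (0.22) lay above it.

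The treated libraries were each compared with the Tbx1neo2/neo2 carrier library. As the 3 comparisons between libraries share that library, a level particular to it enters all of them, and the comparisons are not independent. In the minoxidil library 101 of 5693 genes (1.77%) were higher and 31 (0.545%) lower (60 lower on thinned counts and 19 without the highest 5% of Scrublet scores), and within female cells 116 and 25, of which 110 calls were also made over all cells. Minoxidil opens ATP-sensitive potassium channels and is known to reduce lysyl hydroxylase. Of the drug-related list, 2 genes passed the limit on low levels and neither was called, with Plod2, a lysyl hydroxylase, at 40.5, 38.4, 45 and 29.4 CPM. The other was Hpgd, which degrades prostaglandins.

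The highest ratios included those of Nme2, Hist1h3b, Hist1h2ap, Pgk1, Grcc10, Bloc1s1, Nr4a1, Gstp1 and Cyr61. Nme2, a nucleoside diphosphate kinase, was at 11, 9.09, 94.9 and 15 CPM. Its log2 ratio of 3.38 in cycling TECs stood beside 3.10 in non-cycling TECs, 3.42 in Krt5 TECs, 3.44 in hematopoietic and 3.39 in mesenchymal cells. Hist1h2ap, a histone H2A gene, was at 857.1, 692.1, 4245.4 and 1363.2 CPM, with a log2 ratio of 2.62 beside 2.63, 2.67, 2.84 and 2.77. For Nme2 and Hist1h2ap the minoxidil level was the highest of the 4 libraries in each of these 5 groups of cells. Pgk1 was at 120.5, 77.5, 353.7 and 104.8 CPM. Nme2, Pgk1, Gstp1 and the histone genes have near-identical copies or pseudogenes, among which the counting could divide reads, so their ratios are uncertain. Of the 101 higher genes, 65 of the 81 at 20 CPM there were also at least 1.5-fold higher in non-cycling TECs, 66 of 75 in hematopoietic and 59 of 74 in mesenchymal cells.

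Of 30 histone genes 20 were higher, with a median log2 ratio of 0.84. Of 88 Rpl and Rps genes 5 were higher, and the median was -0.06. Of 16 immediate early genes 8 were higher, with a median of 0.55 against 0.00 over all genes, and Fos had a log2 ratio of 1.67 (1.60 to 1.73). The median of this list was 0.48 in non-cycling TECs, 0.78 in Krt5 TECs, 0.89 in hematopoietic and 2.03 in mesenchymal cells. Of 15 FGF, EGF and IGF pathway genes, Vegfa and Spry2 were higher and Igfbp4 and Igfbp5 lower. Vegfa, the vascular growth factor, was at 37.5, 28.7, 46.7 and 23.4 CPM and the FGF inhibitor Spry2 at 20.9, 18.9, 28.5 and 18.9 CPM. Igfbp5, an IGF-binding protein, was at 62.5, 71.1, 25.8 and 27.1 CPM, so that both treated libraries lay below both carrier libraries. Of 16 hypoxia and glycolysis genes, Vegfa, Pgk1 and Ankrd37 were higher.

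Pcna was the only S phase gene of 29 called, at 134.4 CPM against 82.7 CPM in the Tbx1neo2/neo2 carrier library. Tbata was the only cortical gene of 13, at 20.1 against 11.9 CPM, and its call was lost without its highest cell. Psmb9, an immunoproteasome subunit, was the only MHC gene of 8, at 40.4, 31.0, 49.5 and 50.6 CPM, and Ddit4 the only heat shock gene of 10. No gene was called among 15 transcription factors of the pouch, 7 cytokine and Notch ligand genes, 9 medullary and bipotent genes, 30 G2/M genes, 11 cyclin and CDK inhibitor genes, 14 BMP, Wnt, Notch, Shh and retinoic acid pathway genes, 4 Sox genes, 13 orthologs of the 22q11.2 region and 6 p53 targets. With lists this short, no call lies near the shares of 1.77% higher and 0.545% lower over all genes. The 4 sex-linked genes tested were all called, as the sex makeup required. Besides hemoglobins, of which Hba-a1, Hba-a2 and Hbb-bt were higher within female cells, the lower genes were led by Igfbp5, Gm8730, Vim, Peg3 and Lgals1. Vim, an intermediate filament of mesenchyme, was at 69.9, 76.2, 33.2 and 56.0 CPM, and Lgals1, a lectin, at 104.5, 114.9, 72.8 and 103.9 CPM, beside the lower mesenchymal marker sum given above, whose part was not tested.

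In the PGE2 library 97 of 5704 genes (1.70%) were higher and 36 (0.631%) lower than in the Tbx1neo2/neo2 carrier library (65 lower on thinned counts), and within male cells 100 and 37, of which 109 calls were also made over all cells. Among the 18 lists, immediate early genes were again the largest group, with 15 of 16 higher and a median log2 ratio of 1.47 against 0.01 over all genes. Histone genes, which are not 1 of these lists, had more calls, with 20 of 27 higher. Fos had a log2 ratio of 2.70 (2.64 to 2.76) and Atf3 of 5.50 (4.88 to 6.19). The list's median was 1.17 in non-cycling TECs, 0.87 in Krt5 TECs, 1.03 in hematopoietic and 1.95 in mesenchymal cells, so the shift was not confined to the cycling cells. Among the genes of this list named above, the PGE2 levels of Fos, Fosb, Klf4, Atf3, Klf6 and Socs3 were also above those of the Tbx1+/+ carrier library. That of Nr4a1 was below, at 51.2 against 57.6 CPM.

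**Figure D5:**
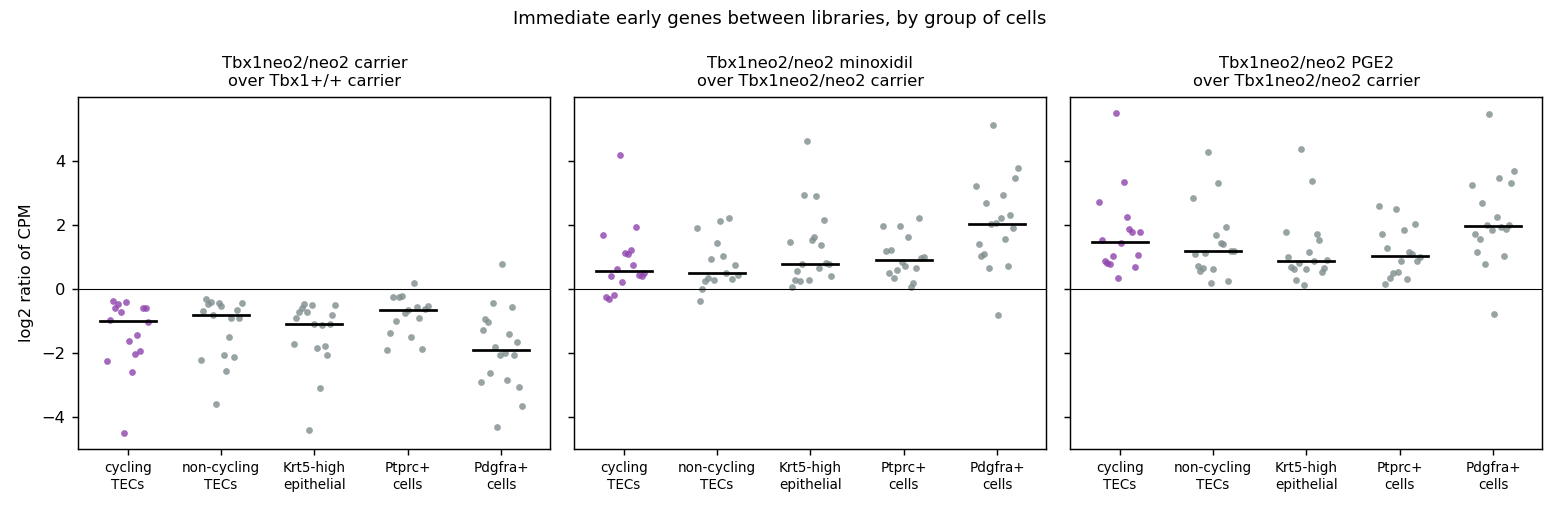
log2 ratio of CPM (vertical axis) of the immediate early genes in 5 groups of cells for Tbx1neo2/neo2 carrier over Tbx1+/+ carrier (left), minoxidil over Tbx1neo2/neo2 carrier (middle) and PGE2 over Tbx1neo2/neo2 carrier (right), 1 point for each gene. The medians in cycling TECs are -1.02, 0.55 and 1.47, and those of the other groups have the same sign in each panel.

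Of 10 antigen-presentation genes tested, Cd74, H2-Aa, H2-Eb1 and Psmb9 were called higher in the PGE2 library, 6 were not called and none was lower, with a median log2 ratio of 0.55. The log2 ratio of Cd74 was 1.10 (1.04 to 1.17) in cycling TECs beside 0.48 in non-cycling TECs, 1.05 in Krt5 TECs, 1.42 in hematopoietic and 1.59 in mesenchymal cells. H2-Aa, an MHC class II chain, was at 41.0, 41.1, 47.2 and 87.8 CPM and H2-Eb1 at 29.9, 34.7, 39.7 and 67.2 CPM. The PGE2 level of each was the highest of the 4. Hematopoietic markers summed to 19.6 CPM in the PGE2 and 41.3 CPM in the Tbx1neo2/neo2 carrier cycling TECs, and macrophage markers to 4.19 and 27.5 CPM. Blood cells can also carry MHC class II, and their part in these levels was not tested.

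Of 12 cortical TEC genes, Ly75 and Cxcl12 were higher and Scx lower. Ly75, an endocytic receptor of cortical TECs, was at 56.3, 39.7, 56.6 and 73.0 CPM, and Cxcl12, a chemokine for thymocyte progenitors, at 113.9, 86.3, 111.4 and 130.3 CPM. Of 9 cytokine and Notch ligand genes, Cxcl12, Cxcl10 and Ccl21a were called higher. Cxcl10 lost the call without its highest cell. Ccl21a, with 93.9% of its UMIs in 1 cell, had a log2 ratio of -1.58 without that cell. Krt17 was the only one of 10 medullary and bipotent genes called, with a log2 ratio of 0.75. Histone genes were higher for 20 of 27, with a median of 0.96, led by Hist1h4d at 132.2, 141.4, 213.4 and 352.6 CPM. Of 88 Rpl and Rps genes none was called.

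Among the 36 lower genes of the PGE2 library was Hmga2, at 700.5, 679.2, 621.2 and 433.0 CPM with all 4 intervals apart. It was the only one of 15 transcription factors of the pouch called. Its log2 ratio of -0.65 (-0.69 to -0.61) stood beside -0.68 in non-cycling TECs, -0.74 in Krt5 TECs, -0.81 in hematopoietic and -1.23 in mesenchymal cells. Igf2bp1, a fetal RNA-binding protein, was at 84.7, 81.9, 77.5 and 52.3 CPM. Sox11, a factor of embryonic progenitors and the only one of 4 Sox genes called, was at 48.1, 53.6, 36.8 and 24.5 CPM. All 3 were lowest in the PGE2 library.

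Of 11 cyclin D, CDK inhibitor and Myc genes, Ccnd1 and Cdk6, which drive entry into the cycle, were lower and the inhibitor Cdkn1b higher. Ccnd1 was at 28.2, 30.7, 22.1 and 16.9 CPM, and Cdk6 at 27.2, 30.5, 24.9 and 20.2 CPM. Of 14 FGF, EGF and IGF pathway genes, Igfbp4, at 34.7, 33.4, 18.7 and 19.2 CPM, and Igfbp5 were lower. The mesenchymal markers Col1a1, Col1a2 and Col3a1, all 3 that were tested, and the chondrogenic Col2a1 were called lower too, beside the mesenchymal marker sum of 160.6 CPM in the Tbx1neo2/neo2 carrier and 33.9 CPM in the PGE2 library, whose part was not tested. Bex4, Fbn2 and Erdr1 were among the 10 lowest ratios, with Xist as the sex makeup required. The hemoglobins Hba-x and Hbb-y were there too, with log2 ratios of -6.05 and -5.42, from the few cells described above. Of 6 hemoglobin genes tested, these and Hba-a1 were called lower. No gene was called among 28 S phase genes, 30 G2/M genes, 14 BMP, Wnt, Notch, Shh and retinoic acid pathway genes, 13 orthologs of the 22q11.2 region, 10 heat shock genes, 6 p53 targets, 15 hypoxia and glycolysis genes and 2 drug-related genes. With lists this short, no call lies near the shares of 1.70% higher and 0.631% lower over all genes. Hpgd, the enzyme that inactivates PGE2, was at 210.4, 197.6, 197.7 and 207.1 CPM, while its receptors did not pass the limit on low levels, with Ptger3 highest at 3.70 to 4.22 CPM.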

How the data were processed

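The authors deposited counts of UMIs per gene and cell for 4 libraries, made with Cell Ranger 5.0.1 on mm10 with barcodes called as cells kept and no normalization. Whether intronic reads were counted is not given in the sources used here. The counts hold 27998 gene rows, and symbols with several rows (56) were summed. Cells with fewer than 200 genes or above 10% mitochondrial UMIs were left out, the first limit following the study's methods and the second being a choice made here. No doublets were removed: Scrublet (scanpy 1.11.5) called 0.00917% to 5.22% of cells by its automatic threshold, so the top 5% of scores in each library was left out as an alternative instead.

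UMIs were summed over the cells of a group and scaled to CPM, with exact Poisson intervals, and ratios had exact conditional intervals, all at 95%. Sums at 0 were compared at a floor of 3 counts. A gene entered a comparison at 20 CPM or more in either sum, and was called at 1.5-fold or more with intervals apart. With 1 library per group there was no test. Genes named are those of 18 lists, and the 10 highest and 10 lowest ratios among genes of at least 50 CPM, other than the 8 genes of the rule. Some of these genes are not reported here. The members and lists were chosen with earlier results of these data known. The comparison was tested on simulated data. Python 3.11.15, numpy 2.4.6, scipy 1.17.1, pandas 2.3.3, matplotlib 3.10.9, and edgeR 4.0.16 in R 4.3.3 (TMM factors alone) were used. Promoters came from RefSeq and gene positions from the GENCODE annotation of mm10. Alternatives were thinning, other limits on UMIs, mitochondrial share, CPM and fold, TMM, per-cell means, and leaving out doublet scores, hemoglobins, the highest cell or 1 sex.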

Additional observations from a re-analysis of the deposited data

How the results depend on the processing

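No paired analysis was possible because each group is 1 library, and no library could be left out for the same reason. Of the values of named genes under the alternatives, 977 kept direction and side of the call, 33 lost the call, 12 gained it and 18 changed direction, and of list medians 464 moved by less than the counting spread and 22 by more. Levels of the identity genes in single libraries moved in 21 values and stayed in 15 for Pax1, and likewise for Il7. The counts were 19 and 17 for Shisa2, 16 and 20 for Six2, and 15 and 21 for Pax9. The order of these genes between libraries was read at the main setting alone. The sex-matched, highest-cell and phase alternatives were chosen after seeing the data. On thinned counts the limits on Ptprc, Krt5, Pdgfra and Gcm2 admit more cells, and the cause of the changes below was not tested.

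The share of epithelial cells was 29.4%, 33.6%, 29.1% and 37.3% on thinned counts, 40.5%, 50.7%, 50.9% and 54.2% at a limit of 5% mitochondrial UMIs, 45.9%, 54.8%, 54.2% and 56.5% with at least 1 UMI of Top2a and Mki67, and 26.5%, 36.7%, 37.5% and 40.4% with at least 4. The ratio of G2/M to S phase sums was 3.28, 3.01, 2.99 and 3.44 on thinned counts, 2.58, 2.37, 2.10 and 2.72 as a mean over cells, 2.76, 2.58, 2.18 and 2.81 at 5% mitochondrial UMIs, 2.54, 2.40, 2.18 and 2.72 with at least 1 UMI and 3.15, 2.89, 2.41 and 3.13 with at least 4. The minoxidil value was the lowest in each.

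Genes called higher in cycling than non-cycling TECs were 268 on thinned counts, 235 at 50 CPM and 251 at 2-fold, and lower ones 51, 102 and 69, or 331 with no CPM limit. Between the carrier libraries, higher genes were 24 on thinned counts, 26 at 5% mitochondrial UMIs, 204 with no CPM limit, 7 at 50 CPM, 6 at 2-fold and 29 in male cells, and lower genes 106 on thinned counts, 427 with no CPM limit, 20 at 50 CPM, 17 at 2-fold and 84 in female cells. For minoxidil, higher genes were 314 with no CPM limit, 50 at 50 CPM and 48 at 2-fold, and lower genes 60 on thinned counts, 19 without the top doublet scores, 369 with no CPM limit, 10 at 50 CPM and 16 at 2-fold. For PGE2, higher genes were 345 with no CPM limit, 51 at 50 CPM and 37 at 2-fold, and lower genes 65 on thinned counts, 395 with no CPM limit, 12 at 50 CPM and 15 at 2-fold.

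Directions turned for Ccl21a and hemoglobins. The log2 ratio of Ccl21a in the PGE2 library was -2.37 on thinned counts, -1.77 at 5% mitochondrial UMIs and -1.58 without its highest cell. Between the carrier libraries the log2 ratio on thinned counts was -0.024 for Hba-a1, -0.32 for Hba-a2, -1.39 for Hbb-bs and -0.75 for Hbb-bt, and in female cells -1.53, -1.34, -2.40 and -2.02. For Hba-x and Hbb-y it was -1.01 and -0.13 without the top doublet scores and -0.74 and -0.53 in female cells. In female cells of the minoxidil comparison it was 2.95 for Hba-a1, 2.85 for Hba-a2 and 3.61 for Hbb-bt. Depth limits genes under 20 CPM, and the 104, 69 and 77 non-cycling TECs of the Tbx1neo2/neo2 libraries widen the intervals there.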
